A study of Drosophila melanogaster with 12 samples.

Results

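The genes described here encode 8 RNA-binding proteins that regulate translation in neurons: orb2 (FBgn0264307), orb (FBgn0004882), Fmr1 (FBgn0028734), Atx2 (FBgn0041188), Imp (FBgn0285926), Syp (FBgn0038826), msi (FBgn0011666) and me31B (FBgn0004419). They were chosen by name, and their members in the data were the 82 entries of a table of transcript 3′ ends that carry one of these gene identifiers, of 32302 entries naming 9576 genes. Counted once each, these entries formed 76 clusters, short stretches of the genome in which sequenced 3′ ends lie, with 47968 reads in all. The data came from UV-cross-linked adult Drosophila heads, from which RNA cross-linked to Pumilio (Pum) was isolated on anti-Flag beads (xRIP). The 3′ ends of the recovered RNA were then sequenced (3′-seq). The 12 libraries formed 4 groups of 3, namely Pum IP and Pum input from flies whose endogenous pum gene carries a Flag-HA tag, and control IP and control input from untagged flies, written w118 in the labels and w1118 in the methods. The input is head lysate before the immunopurification, and the age of the flies was not given beyond adult.

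The experiment was made to ask whether Pum binds the long and the short isoforms of a gene to different extents. The table holds 12 count columns under 1 shared heading with no library name, so the counts were used only as their sum over all 12 libraries. Pum IP, Pum input, control IP and control input cannot be told apart in these sums. Every value below is therefore a pooled read count with no replicate spread, no group was compared with another, and no test was run. Intervals are 95% Wilson intervals and cover counting error only, since the reads are PCR products without molecular identifiers.

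Pum is an RNA-binding protein that represses translation or promotes decay of the mRNAs it binds, and it acts in many neuronal settings together with other RNA-binding proteins. Its binding site, the Pumilio response element (PRE), was searched as UGUANAUA, in which N is any base. Genes with alternative polyadenylation make mRNAs that share a coding sequence and differ in the length of the 3′ UTR, so a longer isoform can hold sites that a shorter isoform lacks. The poly(A) tail is added after a cleavage that usually follows a hexamer such as AAUAAA, the poly(A) signal.

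Elements of the form UGUANAUA were present in the longest annotated 3′ UTR of 4 of the 8 genes, orb2, orb, Imp and msi, and in none of the other 4 (Fmr1, Atx2, Syp and me31B). All 11 elements are shown with 11 bases on each side, in the letters of the dm6 genome read on the strand of the gene, because the distance of each read cluster from them is given below. The element is in capitals.
orb2 element 1, chr3L:8938993-8939022, minus strand: ttttataacatTGTAAATAaataaaacttt
orb2 element 2, chr3L:8938037-8938066, minus strand: atatatatataTGTACATAtatataatgtt
orb element 1, chr3R:23265665-23265694, minus strand: ttttattgatgTGTATATAatatcggtaca
Imp element 1, chrX:10793773-10793802, minus strand: gggatgggaggTGTATATAagaatgttgct
Imp element 2, chrX:10793702-10793731, minus strand: cgctatatatgTGTATATAtgcgatatata
Imp element 3, chrX:10793608-10793637, minus strand: atatatatataTGTATATAaatgtaatcaa
Imp element 4, chrX:10792021-10792050, minus strand: ttttttatataTGTACATAtatatataaat
msi element 1, chr3R:25602312-25602341, plus strand: tattttgcgtaTGTAAATAtctagtttata
msi element 2, chr3R:25602488-25602517, plus strand: attaatttgatTGTACATActtgaccacat
msi element 3, chr3R:25604413-25604442, plus strand: tatatattataTGTATATAtcaattatacg
msi element 4, chr3R:25607455-25607484, plus strand: tcatcataagtTGTACATAcacaagttgta

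Over all 9007 protein-coding genes named by a cluster, 22.8% held at least 1 such element in their longest annotated 3′ UTR, and of the 1129 with a 3′ UTR of at least 1500 bases, 55.8% did. The density was 0.30 elements per kb over the 8 genes, 0.37 per kb over the genes with a 3′ UTR of at least 1500 bases and 0.47 per kb over all protein-coding genes. A match of letters is a description of the sequence and was not taken as a bound site.

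The 8 genes differed widely in their read totals. orb2 had 20944 reads, more than 93.4% of the protein-coding genes in the table. It was followed by Syp with 12427 reads, msi with 4946, me31B with 3698, Imp with 2622, Atx2 with 2158, orb with 997 and Fmr1 with 176. orb2 thus had 1.69 times the reads of Syp and 119 times those of Fmr1, which stood above 9.86% of the genes. 3′-seq is meant to read each transcript at its end, so the totals were not divided by length. They also include clusters before runs of A in the genome and clusters in 5′ UTRs and coding sequence, described below. In the 3′ UTR and downstream, clusters before such A-rich stretches held 13530 reads of orb2, 10037 of Syp and 2012 of Imp. They held 1997 reads of Atx2, 1533 of msi, 80 of Fmr1 and none of orb and me31B. The order of the totals without these clusters was not computed. Whether the totals depend on length was not tested. Without replicates it cannot be said which neighbours in this order differ beyond their spread. The smallest step lay between Imp and Atx2, whose totals differed by 1.22-fold.

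**Figure D1:**
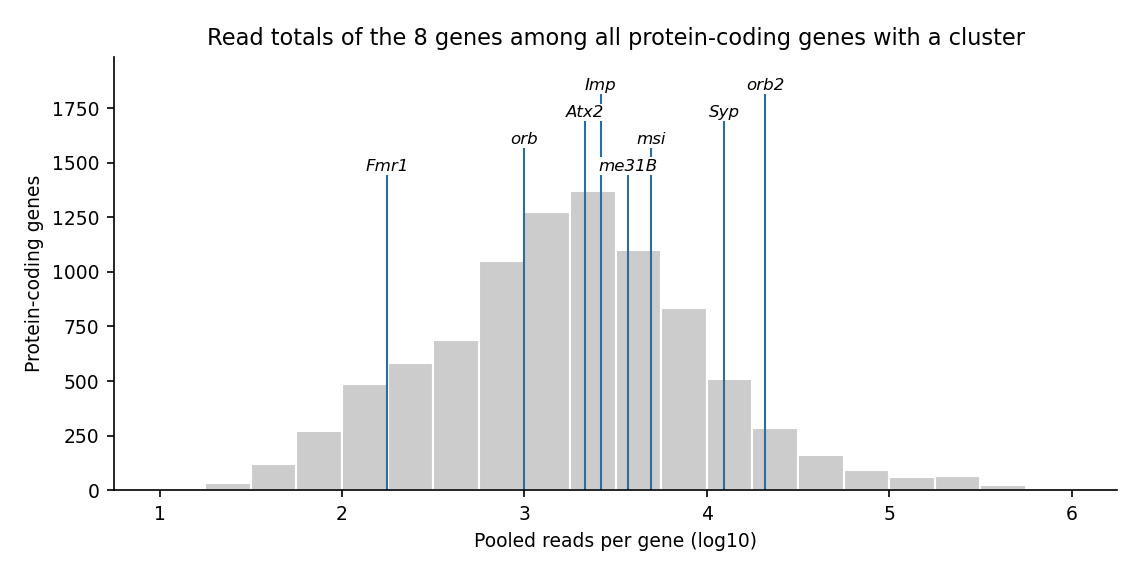
Number of protein-coding genes (y axis) by pooled reads per gene on a log10 scale (x axis, bins of 0.25), with a vertical line for each of the 8 genes. orb2 and Syp lie in the upper tail at 20944 and 12427 reads, Fmr1 in the lower tail at 176 reads, and the other 5 between 997 and 4946 reads.

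The head label was checked against marker genes chosen for this purpose after the data had been seen. All 6 neuronal and photoreceptor markers were named by a cluster, namely elav (8846 reads), nSyb (53650), brp (22327), Syt1 (57919), Syn (7518) and ninaE (465493). None of the 4 germline markers (vas, osk, nanos and bam) was. Since the table keeps only peaks above a minimum depth, absence from it is not a count of 0.

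The places at which the reads ended differed between the genes. A cluster was placed at an annotated end when its last base lay within 50 bases of a transcript end of the gene in the Ensembl annotation. orb and me31B had nearly all reads there, with 96.9% (95.6 to 97.8) and 93.5% (92.7 to 94.3). Syp had 68.8%, Fmr1 68.2%, Atx2 59.0% and Imp 49.5%. orb2 had only 14.9% (14.4 to 15.4) and msi 6.51% (5.86 to 7.23) at annotated ends. The median over the 8 genes was 63.6%, beside 100% over all protein-coding genes.

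**Figure D2:**
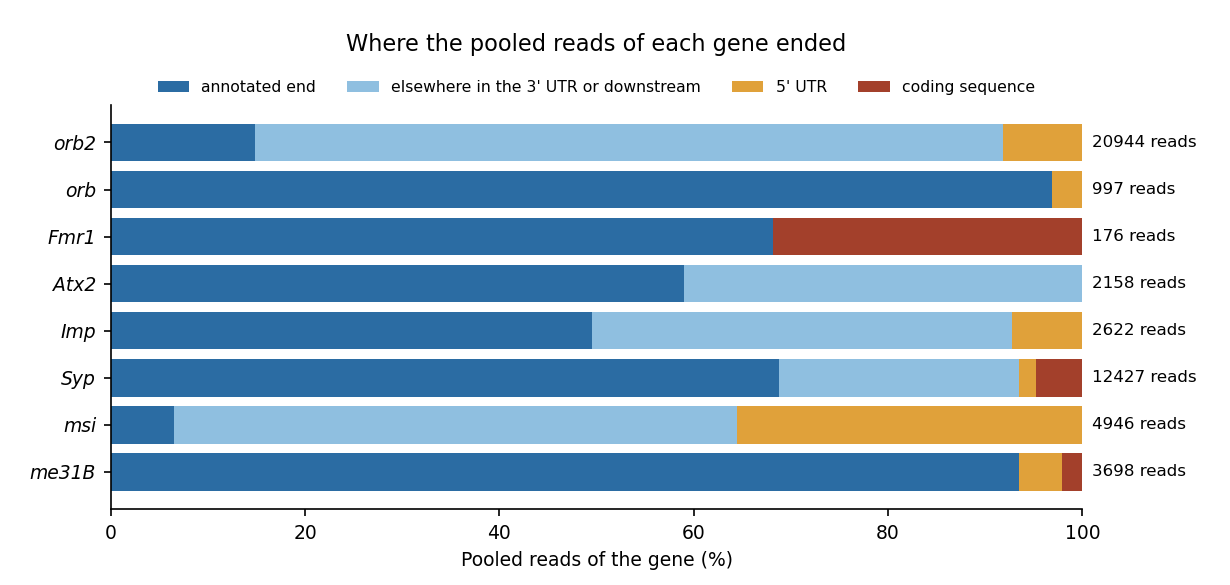
Share of each gene's pooled reads (x axis, percent) by the place where the clusters lie, with the total number of reads at the right of each bar. orb and me31B are filled by annotated ends, whereas most reads of orb2 and msi lie elsewhere in the 3′ UTR, just downstream of the gene or, for msi, in the 5′ UTR.

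orb2 encodes a cytoplasmic polyadenylation element-binding (CPEB) protein whose self-assembling form is required for long-term memory in flies. The gene lies on chr3L:8937100-8954463, minus strand, with 7 transcripts that end at 5 annotated positions. Of its 20 clusters, 16 lay in the 3′ UTR or just downstream and held 19241 reads, and 3 of these carried most of them. The leading cluster had 10544 reads, 54.8% (54.1 to 55.5) of the 3′ reads. It lay 2574 bases after the stop codon inside the long 3′ UTR, 996 bases from the nearest annotated end. The distal cluster had 4196 reads, 21.8% (21.2 to 22.4), at 5898 bases after the stop codon, 107 bases beyond the last annotated end of the gene. Next came a cluster with 2878 reads, 14.96% (14.5 to 15.5), at the annotated end 585 bases after the stop codon. The other 13 clusters had between 36 and 381 reads each.

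The sequences at these 3 orb2 clusters differed, and they are shown because they bear on how each cluster can arise. For the proximal and the middle cluster the last 20 bases are followed by the next 10 bases of the genome in capitals. For the distal cluster the last 30 bases are given with the poly(A) signal in capitals.
orb2 proximal, chr3L:8942296-8942325, minus strand: gttatttaatctcacaaaagAAAAAAAAAA
orb2 middle, chr3L:8940307-8940336, minus strand: tttctttacaagacaacaaaAAAAAAAAAA
orb2 distal, chr3L:8936993-8937022, minus strand: taAATAAAaatactttttctggaataatac

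The proximal and the middle cluster of orb2 were each followed by 10 A in the genome and had none of the 12 hexamers searched 10 to 40 bases before their last base. The distal cluster had 5 A among the next 10 bases and an AAUAAA 27 bases before its end. A genomic A stretch is a place at which the oligo(dT) primer of 3′-seq can anneal inside a transcript. Of the orb2 reads in the 3′ UTR and downstream, 70.3% (69.7 to 71.0) lay before an A stretch, defined here as a run of at least 6 A or at least 7 A among the next 10 bases. A further 24.7% (24.1 to 25.4) lay at clusters with AAUAAA or AUUAAA. The part of internal priming in these counts was not tested.

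Both elements of orb2 lay far from its stop codon, at 3880 and 4836 bases, and thus only in the long 3′ UTR of 5791 bases. Both supported ends of orb2 lay before the first element, so none of the 3120 reads at annotated ends could count as beyond it, and the distal cluster lay outside the 50-base window. Over all its clusters in the 3′ UTR and downstream, 5136 of 19241 reads, 26.7% (26.1 to 27.3), ended beyond the first element and 25.6% (25.0 to 26.2) beyond the second. The 4196 reads of the distal cluster made up most of them. Without the clusters before an A stretch, 5136 of 5711 reads, 89.9% (89.1 to 90.7), ended beyond the first element, a setting that was added after the data had been seen. The remaining 1703 reads of orb2 were in 4 clusters of its 5′ UTR. All of these also named CG43783 (FBgn0264305), a gene that shares 5′ exons with orb2 on the same strand. CG43783 extends over chr3L:8932235-8954272 and so spans every orb2 cluster, the distal cluster included. The 3′ clusters named orb2 alone, and from which of the 2 genes the distal reads came was not tested.

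orb encodes the other fly CPEB protein, known for translational control in the ovary. It lies on chr3R:23260610-23280856, minus strand, and had 3 clusters. A total of 889 reads ended at the last base of the longest transcript, 5243 bases after the stop codon, against 77 reads at the proximal end, 199 bases after it. The distal share was 92.0% (90.1 to 93.6) of the reads at annotated ends. The distal end had an AAUAAA 18 bases before it, whereas the proximal end had none of the 12 hexamers. The sequence at the distal end is shown as an example of an end with its signal.
orb distal, chr3R:23260610-23260639, minus strand: aaataacagatAATAAAggacacacagacc

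The element of orb lay 170 bases after the stop codon, before the proximal end, so that by position both supported ends, with 966 reads, held it. orb was the only gene of the 8 with an element in the longest 3′ UTR whose annotated end had a cluster within 50 bases. Over all 8502 protein-coding genes with a supported end, 21.7% had one. At clusters away from annotated ends, 5136 reads of orb2, 527 of Imp and 2868 of msi also lay beyond their first element. No read of orb lay before an A stretch. Its remaining 31 reads formed 1 cluster in the 5′ UTR.

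**Figure D3:**
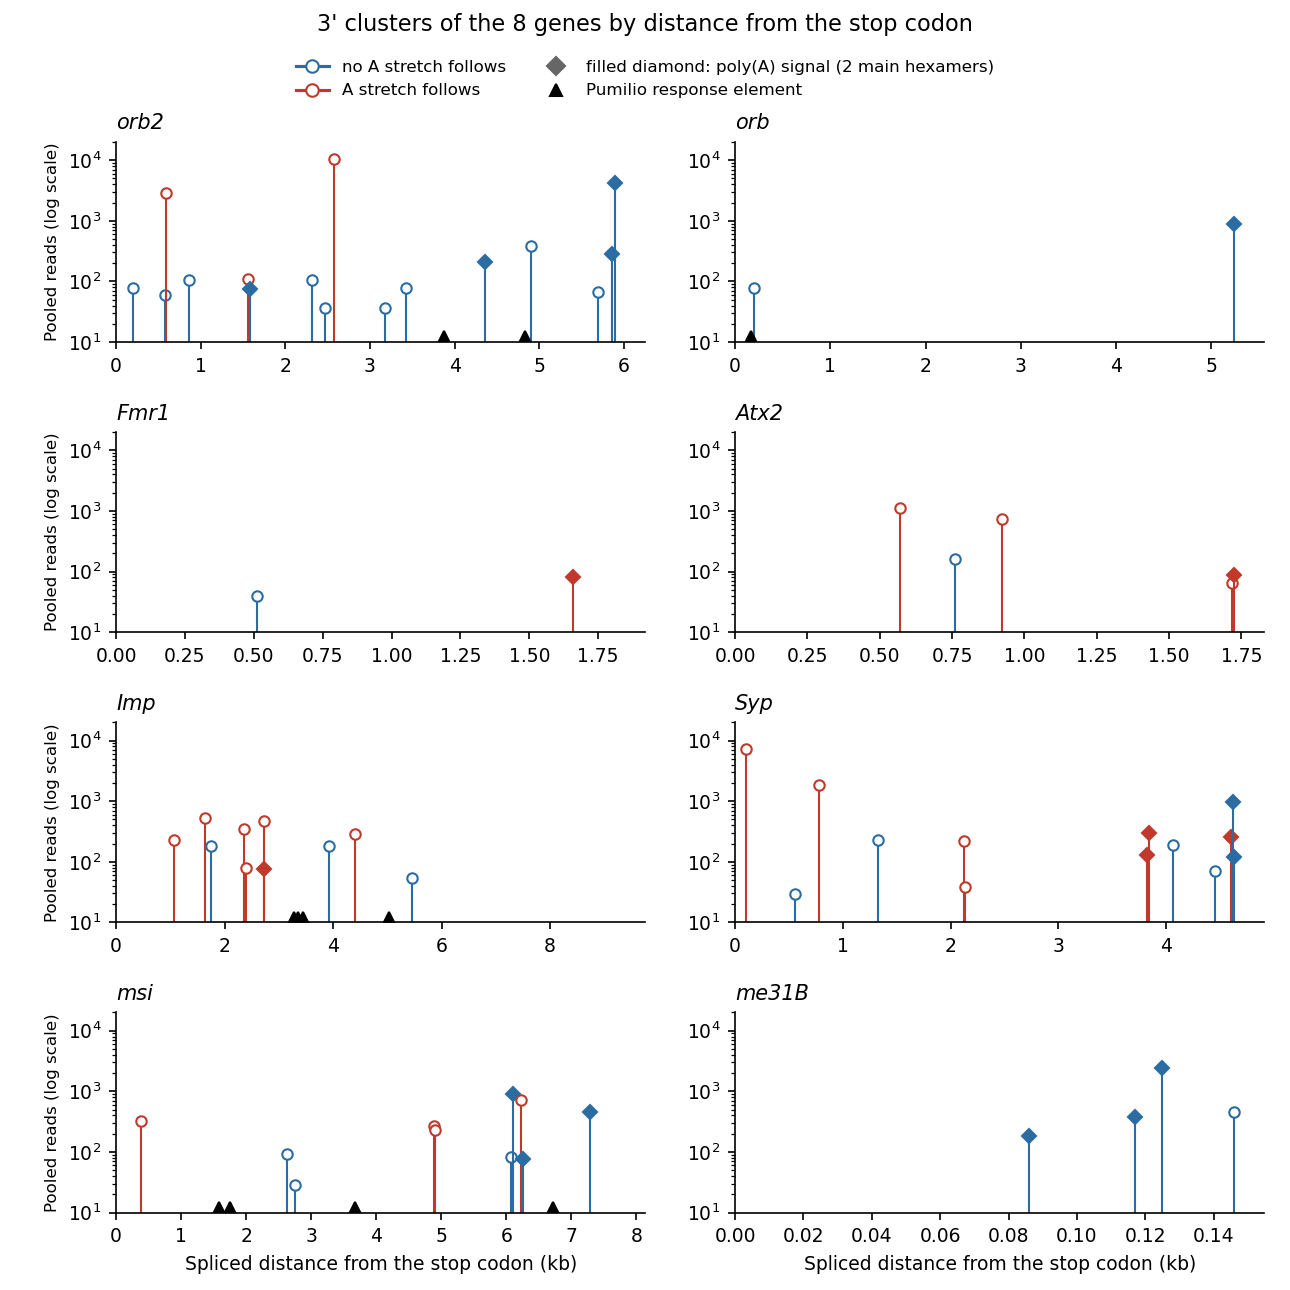
Pooled reads of each cluster in the 3′ UTR or downstream (y axis, log scale) by spliced distance from the stop codon (x axis, kb; the range differs between genes). Red clusters precede an A stretch of the genome, blue clusters do not, filled diamonds mark AAUAAA or AUUAAA, and triangles mark Pumilio response elements. The 2 highest clusters with a signal and no A stretch are the distal orb2 cluster (4196 reads) and the me31B end (2435 reads).

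Fmr1 encodes the fly homolog of FMRP, a translational repressor whose loss in humans causes fragile X syndrome. It lies on chr3R:10101420-10110121, minus strand, with 5 annotated ends, and had the fewest reads of the 8 genes. Its distal end, 1658 bases after the stop codon, had 80 reads, 66.7% (57.8 to 74.5) of those at annotated ends, and its proximal end, 511 bases after the stop codon, had 40. The distal position had both an AAUAAA and 7 A among the next 10 bases. Another cluster, of 56 reads, lay in the coding sequence. With 176 reads, these shares carry the widest intervals of the 8 genes.

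Atx2 encodes Ataxin-2, which binds poly(A)-binding protein and activates translation of period mRNA in clock neurons. The gene lies on chr3R:15408423-15417277, plus strand. Its proximal end, 569 bases after the stop codon, had 1121 reads, 88.1% (86.2 to 89.7) of the reads at annotated ends, against 152 reads at the distal end at 1725 bases. A further cluster of 724 reads lay 345 bases beyond the nearest annotated end and was followed by 10 A. It is shown because it held 33.5% (31.6 to 35.6) of the Atx2 reads without an annotated end nearby, with the next 10 bases in capitals.
Atx2 unannotated, chr3R:15416454-15416483, plus strand: accggcacacctacaaccccAAAAAAAAAA

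In all, 92.5% (91.4 to 93.6) of the Atx2 reads lay before an A stretch, the highest share among the 8 genes, and 4.03% at a cluster with AAUAAA or AUUAAA. The single cluster with such a hexamer was the last base of the longest transcript, with 87 reads. It was itself followed by 10 A, so the 2 shares overlap.

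Imp and Syp encode RNA-binding proteins that form opposing temporal gradients in neural progenitors, in which Imp is high early and Syp late. Imp lies on chrX:10787869-10824277, minus strand, with 7 annotated ends. Its 2622 reads were spread over 12 clusters, and no end dominated. The supported ends at 1072, 1632 and 2731 bases after the stop codon had 227, 524 and 548 reads, or 17.5% (15.5 to 19.6), 40.3% (37.7 to 43.0) and 42.2% (39.5 to 44.9) of the reads at annotated ends. The intervals of the middle and the distal share overlap. Of the Imp reads, 1904 in 7 clusters also named the noncoding RNA gene lncRNA:CR45204 (FBgn0266731), which overlaps these ends on the same strand at chrX:10794338-10796292. With clusters naming Imp alone, its total was 718 reads and none lay at an annotated end.

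The 4 elements of Imp lay beyond all of these supported ends, the first 3 at 3278, 3349 and 3443 bases after the stop codon and the fourth at 5030 bases. Over the clusters of the 3′ UTR, 527 of 2431 reads, 21.7% (20.1 to 23.4), ended beyond the first 3 elements and 53 reads, 2.18% (1.67 to 2.84), beyond the fourth. Without clusters before an A stretch, 237 of 419 reads, 56.6% (51.8 to 61.2), ended beyond the first. The annotated 3′ UTR of Imp extends to 9200 bases, but the last cluster lay at 5457 bases. Of the Imp reads in the 3′ UTR, 82.8% (81.2 to 84.2) lay before an A stretch and 3.09% at AAUAAA or AUUAAA. The latter share was a single cluster of 75 reads, itself followed by 9 A among 10 bases and thus part of both shares.

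Syp had the opposite layout, with a dominant proximal cluster. The gene lies on chr3R:20756729-20810726, plus strand. Its cluster 102 bases after the stop codon, 1 base from an annotated end, had 7224 reads, 62.2% (61.3 to 63.1) of the 3′ reads. A cluster at 778 bases, 677 bases from the nearest annotated end, had 1879 reads, 16.2% (15.5 to 16.9). The distal end comprised 3 clusters, at 4604, 4627 and 4634 bases after the stop codon, of 256, 951 and 119 reads. Of the reads at annotated ends, 84.5% (83.7 to 85.2) were proximal and 15.5% (14.8 to 16.3) distal. The proximal cluster, with the next 10 bases in capitals, and the main distal cluster, with the nearest of its 3 AAUAAA in capitals, are shown for the contrast between them.
Syp proximal, chr3R:20806205-20806234, plus strand: acaaggaagttacagccacaAAAAAAAAAT
Syp distal, chr3R:20810720-20810749, plus strand: agataataaaatgaaataAATAAAgaatgc

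The proximal position of Syp had no hexamer and was followed by 9 A among 10 bases, and the distal cluster had an AAUAAA 25, 15 and 11 bases before its last base and 4 A after it. Of the Syp reads in the 3′ UTR, 86.4% (85.7 to 87.0) lay before an A stretch. With those positions left out, the read-weighted 3′ UTR length of Syp over all its 3′ clusters was 4009 bases, against 1023 bases with them. Syp had no element in its 3′ UTR of 4604 bases. It also had 595 reads in a coding cluster and 213 in the 5′ UTR.

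msi encodes Musashi, a translational repressor of sensory organ precursors and other stem and progenitor cells. It lies on chr3R:25516118-25608423, plus strand. Its single supported end, 389 bases after the stop codon, had 322 reads, 10.1% (9.10 to 11.2) of the 3′ reads. The other 2868 reads in its 3′ UTR ended between 2632 and 7295 bases after the stop codon, all of them away from annotated ends. The leading cluster, at 6111 bases, had 913 reads, 28.6% (27.1 to 30.2), with an AAUAAA 37 bases before its last base and 3 A after it. A cluster at 6224 bases had 716 reads and was followed by 8 A, and the last cluster, at 7295 bases, had 465 reads and an AUUAAA.

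The elements of msi lay at 1576, 1752, 3677 and 6719 bases after the stop codon. The supported end, with 322 reads, is proximal to all of them. Over all clusters of the 3′ UTR, 89.9% (88.8 to 90.9) of the reads ended beyond the first 2 elements, 86.1% (84.9 to 87.3) beyond element 3 and 14.6% (13.4 to 15.8) beyond element 4. Of the msi reads in the 3′ UTR, 48.1% (46.3 to 49.8) lay before an A stretch. Without those positions, all 1657 reads left were beyond the first element. The only 3′ cluster before that element was the supported end, which was followed by 8 A and so was left out in this setting. msi also had 1756 reads in 2 clusters of its 5′ UTR, 35.5% (34.2 to 36.8) of its total, the largest such share among the 8 genes.

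me31B encodes a DEAD-box RNA helicase that represses translation and joins the decapping machinery in cytoplasmic granules. It lies on chr2L:10239341-10242172, plus strand, and was the simplest of the 8 genes. Its annotated 3′ UTR measures 124 bases and its single supported end had 3458 reads in 4 clusters, of 185, 374, 2435 and 464 reads. The leading cluster ended 1 base past the annotated transcript end with an AAUAAA 26 bases before it, shown in capitals.
me31B end, chr2L:10242144-10242173, plus strand: ttaAATAAAtggaaagcaattcaattttta

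No read at the me31B end lay before an A stretch, and 86.6% (85.4 to 87.7) lay at clusters with AAUAAA or AUUAAA. The remaining reads were 164 in the 5′ UTR and 76 in the coding sequence.

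Set side by side, 6 of the 8 genes had at least 2 supported ends (75.0%), beside 16.8% of 8502 protein-coding genes with a supported end. Imp had 3, orb2, orb, Fmr1, Atx2 and Syp had 2, and msi and me31B had 1. Without clusters before an A stretch, only orb2 and orb kept at least 2, and the share over all genes was not recomputed in that setting. The longest annotated 3′ UTR had a median of 4923.5 bases over the 8 genes and of 316 bases over all protein-coding genes. The leading supported end held between 42.2% (Imp) and 94.2% (orb2) of the reads at annotated ends in the 6 genes with several, with a median over all 8 genes of 90.0%. For orb2 the leading share was 54.8% with every cluster in the 3′ UTR or just downstream. It was 55.2% (46.8 to 63.4) at supported ends without clusters before an A stretch. That value rests on 2 small clusters, of 74 reads at 1582 bases and 60 reads at 572 bases after the stop codon. With so few reads, which of the 2 led cannot be told. The share of reads beyond the proximal end, among reads at annotated ends, was 92.0% in orb, 82.5% in Imp, 66.7% in Fmr1, 15.5% in Syp, 11.9% in Atx2 and 5.83% in orb2. This order depended on the clusters used: with every cluster in the 3′ UTR or just downstream, the share was 84.3% in orb2, 48.1% in Atx2, 37.8% in Syp and 90.7% in Imp, and it did not move in orb and Fmr1. At the supported ends of orb2 without clusters before an A stretch it was 55.2% (46.8 to 63.4), which rests on the same 2 small clusters. The read-weighted 3′ UTR length over these ends was 4841 bases in orb, 1998 in Imp, 1276 in Fmr1, 804 in Syp, 707 in Atx2, 642 in orb2, 389 in msi and 125 in me31B. With every cluster in the 3′ UTR or just downstream it was 5415 bases in msi and 3094 bases in orb2, the genes with the lowest shares of reads at annotated ends.

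The leading supported end had 1 of the 12 hexamers in 4 of the 8 genes, AAUAAA in orb, Fmr1 and me31B and AAGAAA in Atx2, and none in orb2, Imp, Syp and msi. In orb2, Imp, Syp and msi that end preceded an A stretch, as it did in Fmr1 and Atx2. Away from annotated ends, orb2 and msi each had a cluster with more reads and an AAUAAA. These were the distal orb2 cluster with 4196 reads and the msi cluster at 6111 bases with 913 reads. Over all 8502 genes, 88.9% of leading supported ends had 1 of the hexamers and 69.3% had AAUAAA or AUUAAA. The sequence UUUUAU, the core of the element bound by CPEB proteins, was absent from the last 100 bases before the leading end of all 8 genes, and it was present at 12.9% of the leading ends of all genes. It was searched on the strand of the gene, and its absence says only that these letters were not in this window. With only 8 genes, the absence does not set them apart from the share over all genes. The same letters do lie outside these windows, in the sequences printed above around orb2 element 1, orb element 1 and Imp element 4.

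The bases after the clusters of the 8 genes were rich in A. At annotated ends, 13 of 24 clusters preceded an A stretch (54.2%), beside 19.1% of 16015 clusters of all protein-coding genes. Away from annotated ends, 13 of 52 did (25.0%), beside 12.3% of 13170, and a further 35 (67.3%) had 5 or 6 A among the next 10 bases, beside 58.6%. All 11 clusters in 5′ UTRs had 5 or 6 A, beside 76.7% of 2095 such clusters of all protein-coding genes. The study's methods describe the removal of positions before such stretches unless they lay near an annotated end. Over all protein-coding genes, 422 clusters away from annotated ends had 7 A after them, against 4682 with 6 A. Even so, 13 clusters of the 8 genes away from ends in the annotation used here preceded an A stretch, among them the leading orb2 cluster with 10544 reads and 10 A after it. How they came to remain in the table was not tested, nor whether they passed the study's further check against high-confidence 3′ ends. The median share of 3′ reads before an A stretch was 68.5% over the 8 genes and 0% over all protein-coding genes.

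**Figure D4:**
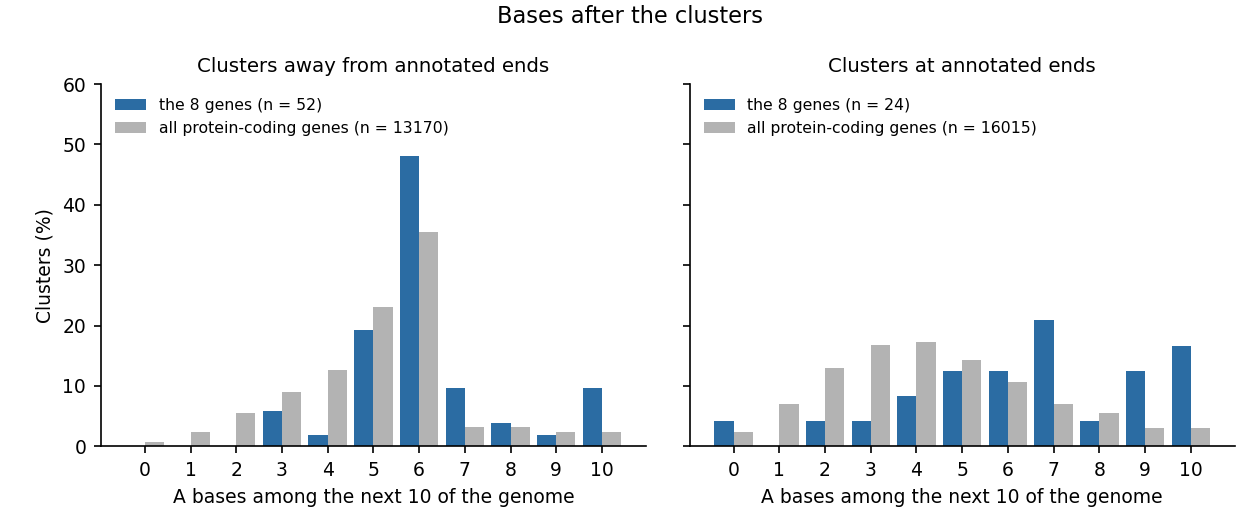
Percent of clusters (y axis) by the number of A among the next 10 genomic bases (x axis), for the 8 genes (blue) and all protein-coding genes (grey), away from annotated ends (left) and at annotated ends (right). Away from annotated ends the most frequent value is 6 A in both sets, and at annotated ends 13 of 24 clusters of the 8 genes have at least 7 A.

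A list of 20 known partners and other translation regulators was described in the same way. Of these, 18 were named by a cluster, and Gld2 and nanos were not. The highest total was that of pAbp, the poly(A)-binding protein, with 58957 reads, and the lowest was that of Ge-1, a decapping factor, with 643 reads. The median was 5604.5 reads over the 18 partners, beside 3160 reads over the 8 genes and 1779 over all protein-coding genes. At least 2 supported ends were found in 10 of the 17 partners with a supported end (58.8%), and 9 of the 18 held an element in the longest annotated 3′ UTR. The median share of 3′ reads before an A stretch was 69.2% in the partners.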

How the data were processed

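Libraries were prepared by the authors with a QuantSeq REV kit, trimmed with fastp and mapped with STAR 2.6.1b to dm6 with Ensembl release 93. Their methods describe the removal of bases before at least 6 A, or 7 A among 10, except within 25 bases of annotated ends, but the table still holds such positions farther from the ends annotated in the release used here. Peaks of at least 6 reads were extended by up to 15 bases, merged and recounted. The methods then describe a check of clusters against high-confidence 3′ ends, taken from long-read RNA sequencing or from annotation. Only clusters near those ends entered the study's 3′ UTR length analyses, and that check was not repeated here. The deposited values are raw read counts per cluster. None of the 12 count columns names a library, so all 12 were used only as their sum, and depth per library is unknown.

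A position listed more than once was counted once (867 repeats), and 530 clusters lying inside another were left out, which left 30905 clusters and 121448636 reads. Starts were taken as 0-based. Positions were read against Ensembl release 115 and the RefSeq genome sequence of the same assembly, dm6. Clusters of a gene within 50 bases of an annotated end were joined into supported ends when up to 50 bases apart, and clusters up to 500 bases downstream were kept. Motifs were searched on the strand of the gene. Hexamers were AAUAAA and AUUAAA and 10 variants, 10 to 40 bases before the end. Scripts used Python 3.11.15 with NumPy 2.4.6 and SciPy 1.17.1 and were tested on simulated data.

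All 8 genes are named, with those sharing a cluster with them. Of the partner list, only the highest and lowest totals are named, and the 2 genes without a cluster were named after this had been seen. The genes and lists were chosen with earlier results of these data known. Alternatives are given in the closing section.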

Additional observations from a re-analysis of the deposited data

Results flagged for a closer look

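Clusters outside the 3′ region were not used in the values on 3′ ends other than as part of the gene totals, and 7 of the 8 genes had some. Each listed cluster stands above 3 reads, the limit of a count of 0, because only peaks of at least 6 reads entered the table. In 5′ UTRs there were 1703 pooled reads for orb2, 31 for orb, 191 for Imp, 213 for Syp, 1756 for msi and 164 for me31B. In coding sequence there were 56 for Fmr1, 595 for Syp and 76 for me31B. A cluster in a 5′ UTR was found in 6 of the 8 genes, beside 14.4% of all protein-coding genes, and a coding cluster in 3 of them, beside 12.9%. The control libraries could not be set apart from the others for these reads.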

How the results depend on the processing

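Of the 24 summary values recomputed over the 8 genes, 14 stayed within 1.5 times the reported value and 10 moved, and for single genes, where a share was held to its counting interval, 130 of 178 values stayed and 48 moved, 41 of them by over 1.5 times. No paired analysis was possible because the count columns carry no library name, and for the same reason leaving out a replicate was not possible. With all clusters in the 3′ UTR and downstream in place of supported ends, the median share at the leading end was 58.5% against 90.0%, the median share beyond the proximal end 84.3% over 7 genes against 41.1% over 6 (75.5% over the same 6), the median read-weighted length 1913 against 755 bases, and the median share beyond the first element 10.8% against 0%. With positions before an A stretch left out, the median share beyond the proximal end was 73.6%, which rests on only orb2 and orb (48.9% for these 2 with the positions kept). With both settings, added after the data had been seen, the median length was 3589 bases and the median share beyond the first element 28.3%. In the longest 3′ UTR with a supported end, UGUANA was found in 5 genes, against 1 with UGUANAUA. It gave a median share beyond the first match of 13.7%. The 3′ UTRs so searched measured only 1578 bases in orb2, 389 in msi and 124 in me31B, the genes without a match. The share of all genes that hold UGUANA was not computed. The longest annotated 3′ UTR held UGUANAUA in 4 genes.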
